A study of Mus musculus with 16 samples.

Results

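The insulin-like growth factor (IGF) genes described here are the ligands Igf1 and Igf2, the receptors Igf1r and Igf2r, and 6 binding proteins, Igfbp2, Igfbp3, Igfbp4, Igfbp5, Igfbp6 and Igfbp7. They were chosen by gene symbol, with no use of measured values, and each of the 10 symbols names 1 of the 36829 features for which every mouse has a value. The samples were cortical bone of the femur from female C57Bl/6 mice, 11 weeks old, with 8 mice under normal weightbearing (control) and 8 after 7 days of hindlimb unloading (HLU), in which a tail harness keeps the hind limbs off the floor. Both groups had the same strain, sex, age and preparation of the bone, in which the ends were removed, the marrow was rinsed out and the shaft was frozen before RNA isolation, and the labels name no transgene or drug. One library was made per mouse. The shaft was not sorted into cell types, so each value is a mean over osteocytes, surface cells, vessels and any marrow or soft tissue that remained.

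IGF1 and IGF2 are secreted growth factors that osteoblasts, osteocytes and marrow stroma release and that bone matrix stores. Both act through IGF1R, a receptor tyrosine kinase, while IGF2R, the cation-independent mannose 6-phosphate receptor, removes IGF2 from the cell surface and sorts lysosomal enzymes. IGF binding proteins hold the ligands outside the cell: IGFBP3 and IGFBP5 carry them in ternary complexes, IGFBP5 also binds bone mineral, IGFBP4 mostly restrains IGF action until it is cleaved, IGFBP6 prefers IGF2, and IGFBP7 binds IGFs weakly and is abundant in vessels.

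The sequences upstream of 4 of these genes are shown because the results below turn on them: Igfbp5 and Igfbp4 had the highest deposited RPKM of the binding proteins, an order that rests on the gene lengths used, and Igfbp6 and Igf2r were the pair with the closest relation between mice. Each run is the 250 bases before the annotated start, from 5′ to 3′ on the gene's strand, taken from RefSeq on GRCm38.p6, and capitals mark motif letters found on either strand. The positions are chr1:72874866-72875115 on the minus strand for Igfbp5, chr11:99040994-99041243 on the plus strand for Igfbp4, chr15:102143936-102144185 on the plus strand for Igfbp6 and chr17:12769707-12769956 on the minus strand for Igf2r.
Igfbp5: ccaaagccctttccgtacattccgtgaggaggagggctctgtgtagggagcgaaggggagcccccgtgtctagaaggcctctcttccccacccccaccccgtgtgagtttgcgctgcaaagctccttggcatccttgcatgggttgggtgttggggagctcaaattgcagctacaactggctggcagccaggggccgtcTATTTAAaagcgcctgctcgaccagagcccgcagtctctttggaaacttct
Igfbp4: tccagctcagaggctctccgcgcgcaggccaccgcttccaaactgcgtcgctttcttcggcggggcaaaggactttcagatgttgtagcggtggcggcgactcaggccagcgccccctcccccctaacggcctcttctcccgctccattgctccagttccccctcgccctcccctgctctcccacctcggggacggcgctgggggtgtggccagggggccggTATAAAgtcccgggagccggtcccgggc
Igfbp6: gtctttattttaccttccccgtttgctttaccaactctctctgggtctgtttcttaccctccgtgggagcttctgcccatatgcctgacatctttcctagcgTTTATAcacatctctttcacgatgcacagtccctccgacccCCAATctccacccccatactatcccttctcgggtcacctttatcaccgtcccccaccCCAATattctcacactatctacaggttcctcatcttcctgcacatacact
Igf2r: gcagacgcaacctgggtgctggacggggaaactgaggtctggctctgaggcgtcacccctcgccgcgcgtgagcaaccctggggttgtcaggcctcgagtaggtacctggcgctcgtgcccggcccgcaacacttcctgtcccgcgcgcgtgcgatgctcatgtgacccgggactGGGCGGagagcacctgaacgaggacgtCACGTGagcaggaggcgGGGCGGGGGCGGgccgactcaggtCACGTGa

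The motifs searched were TATAAA and its variant TATTTAA, the GC box GGGCGG, the box CCAAT, the E-box CACGTG and the AP-1 letters TGANTCA, on both strands and in windows that reach 50 bases past the start. The Igfbp5 window held TATTTAA at position -51 from the start, letters present in 4.51% of 32851 promoters of the same length. The Igfbp4 window held TATAAA at -28 and the Igfbp6 window held it at -148 on the opposite strand, against 13.6% of all promoters. The Igf2r window held GC boxes at -75, -31 and -25, the last of which lie side by side, and E-boxes at -48 and -7, against 35.7% and 7.15% of all promoters. It also had 34 CpG pairs, more than 92.3% of promoters, while Igfbp5 had 10 and Igfbp6 had 8 (median of all promoters, 7). Igfbp6 held CCAAT at -107 and -50, letters found in 37.4% of promoters. These matches describe the letters in the windows, and no binding was measured.

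Library size and cell content bear on every value below. The read total behind each library's RPKM lay between 7067512 and 21363584, with the smallest libraries in Control 2 and HLU 5. The features in the files held between 76.3% and 93.2% of them, and mitochondrial genes took between 6.08% and 19.1% of the reads on listed features. Of the osteocyte markers 6 of 6 were measured, including Dmp1 and Sost, with summed levels between 179 and 589 RPKM in the control group and between 263 and 598 under HLU. The osteocyte score, the mean centred log2 level of these markers, was 0.47 higher in HLU mice (exact permutation p = 0.0696). Erythroid markers (10 of 10) summed to between 3096 and 8756 RPKM in control mice and between 1692 and 4535 in HLU mice, and granulocyte markers (7 of 10 listed) to between 12301 and 44306 RPKM over all mice, so blood cells contributed to these libraries. None of 7 skeletal muscle symbols matched a feature, and Myh7, a muscle myosin chosen after its values were seen, ranged from 0.148 to 56.7 RPKM. The symbol Rnf135 is carried by 3887 of the 36829 features, so a symbol without a match does not show that its gene was unmeasured. Of 16973 features averaging 0.5 RPKM or more, 1.11% were higher and 4.76% were lower in HLU mice at an unadjusted limma p under 0.05 and at least 1.2-fold (188 and 808 features). None passed an adjusted p of 0.1, with 1049 at an unadjusted p under 0.05 and a lowest adjusted p of 0.256 from limma. The median log2 fold change of all tested features was -0.10. Median-of-ratios scaling moved it to -0.02 and gave 376 higher and 401 lower features, and quantile normalization moved it to 0.00 and gave 460 and 364. Changes are therefore also given relative to the median of all features.

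Of the 10 IGF genes, 9 passed the filter on low values, and Igfbp2 did not. At the unadjusted threshold 1 of the 9, Igfbp5, was called, where 5.87% of all tested features were called in either direction, and 0 of the 9 passed the adjusted threshold. Fold changes lay above 0 for 8 of the 9 and below 0 for Igf1r, with a median log2 fold change of 0.14, while 32.1% of all tested features lay above 0. Igfbp6 is above 0 on the log2 scale only, since its mean RPKM was slightly lower in HLU mice. Set against the median of all features, which by definition has as many features above as below, 8 of the 9 lay above it. Several of the 9 varied together between mice, as described below, so these directions are not independent.

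**Figure D1:**
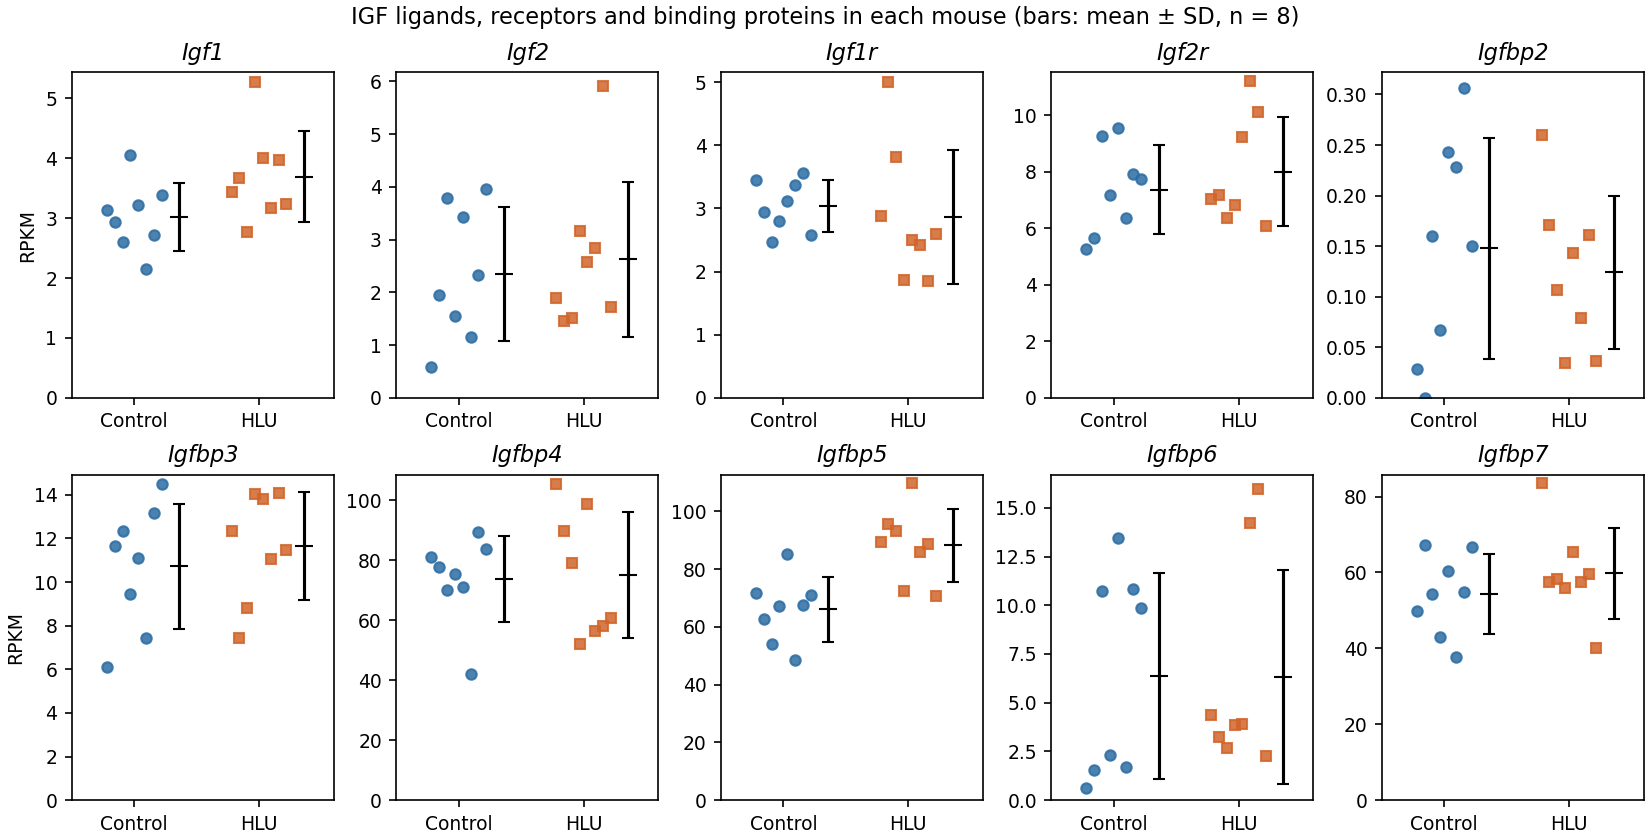
RPKM (y axis, from 0) of each of the 10 genes in each mouse, with control mice as circles, HLU mice as squares and the mean ± SD of 8 mice beside them. Igfbp5 lay above every control value in 6 of 8 HLU mice, the groups overlapped for each of the 10 genes, and Igfbp6 spread from 0.639 to 15.9 RPKM.

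Igf1, the main growth hormone-responsive ligand, had between 2.14 and 4.05 RPKM in control mice, with a median of 3.03. In HLU mice it had between 2.77 and 5.28, with a median of 3.55. HLU mice were shifted upward, with 7 of 8 above the control median, but the groups overlapped and 1 HLU mouse lay above every control mouse. Means were 3.02 ± 0.573 in control and 3.69 ± 0.763 in HLU mice (SD of 8 mice per group), a log2 fold change of 0.28 ± 0.14 (SE) or 0.38 relative to the median of all features. This did not pass the test (limma unadjusted p = 0.0689, adjusted p = 0.744, two-sided exact permutation p = 0.0561). It passed the unadjusted threshold with median-of-ratios scaling (log2 fold change 0.36), quantile normalization (0.38) and the replicate block (0.28), with adjusted limma p of 0.904, 0.897 and 0.725. With erythroid and granulocyte scores as covariates, the log2 fold change of Igf1 was 0.11, and erythroid marker scores were lower in HLU mice by 0.60 on the log2 scale (exact permutation p = 0.0673). In bulk RNA, a change in the number of cells of a type cannot be told apart from a change in RNA per cell.

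Igf2, the imprinted growth factor of fetal life, varied far more between mice than Igf1. It had between 0.586 and 3.96 RPKM in control mice (median 2.14) and between 1.45 and 5.91 in HLU mice (median 2.23). The groups overlapped almost wholly, and the highest value, in HLU 7, stood apart from the other HLU mice, of which the next was at 3.17. The mean was 2.34 ± 1.27 in control and 2.63 ± 1.47 in HLU mice (SD of 8 mice per group), with a log2 fold change of 0.23 ± 0.37 (SE, exact permutation p = 0.573, 95% interval -0.54 to 1.00). Without Control 1, which had the lowest Igf2, the log2 fold change was -0.0028. GENCODE M21 places Gm49394 and Mir483 on the same strand as Igf2, and Igf2os on the other, and Igf1os lies opposite Igf1. Whether the authors counted by strand is not stated in the sources used here, so reads of these neighbours cannot be told apart from those of the ligands.

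Together the ligands summed to between 3.29 and 7.34 RPKM in control mice and between 4.29 and 9.87 in HLU mice. Igf1 made up 58.8% ± 14.6 of this sum in control and 60.3% ± 9.69 in HLU mice (SD of 8 mice per group, exact permutation p = 0.817).

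Igf1r, the signalling receptor, was the one gene with a log2 fold change below 0 among the 9 that passed the filter. It had between 2.47 and 3.56 RPKM in control mice (median 3.03) and between 1.86 and 5.00 in HLU mice (median 2.55). The HLU mice lay on both sides of the control mice, with 2 above every control mouse (HLU 2 and HLU 3) and 6 below the control median. Means were 3.04 ± 0.408 and 2.87 ± 1.06 (SD of 8 mice per group), and the log2 fold change of -0.14 ± 0.18 (SE) was -0.04 relative to the median of all features (exact permutation p = 0.449). With erythroid and granulocyte scores as covariates it was 0.02.

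Igf2r, the receptor that clears IGF2, had between 5.29 and 9.55 RPKM in control mice (median 7.46). In HLU mice it had between 6.10 and 11.2 (median 7.12). The medians were nearly level, and HLU 6 and HLU 7 lay above every control mouse. The log2 fold change was 0.11 ± 0.16 (SE, n = 8 each, exact permutation p = 0.477), with a 95% interval of -0.22 to 0.45. Airn, a noncoding RNA, lies on the opposite strand within Igf2r. Igf1r made up 29.8% ± 6.21 of the summed receptors in the control group against 26.7% ± 9.23 in HLU mice (SD of 8 mice per group, exact permutation p = 0.437). This share rests on gene length: with the combined exon lengths of GENCODE M21, discussed below, it was 10.7% ± 2.84 in control and 9.49% ± 4.10 in HLU mice.

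Igfbp5 was the only IGF gene called at the unadjusted threshold, where 5.87% of all tested features were called in either direction. It had between 48.6 and 85.3 RPKM in control mice (median 67.5) and between 70.5 and 109.7 in HLU mice (median 89.0). All 8 HLU mice lay above the control median and 6 of 8 above every control mouse, while HLU 4 and HLU 8 lay within the control range. Of tested features, 0.218% had at least 6 of 8 HLU mice above every control mouse. Means were 66.1 ± 11.3 and 88.2 ± 12.6 (SD of 8 mice per group), a 1.34-fold difference with a 95% interval of 1.12 to 1.61. The log2 fold change was 0.42 ± 0.12 (SE), or 0.52 relative to the median of all features. It passed the unadjusted but not the adjusted threshold (limma unadjusted p = 0.00327, adjusted p = 0.744, two-sided exact permutation p = 0.00171). The value did not rest on 1 mouse, since leaving out each in turn gave log2 fold changes from 0.36 to 0.48. Without the 2 smallest libraries it was 0.37, and with the erythroid and granulocyte scores as covariates 0.43. Igfbp5 was among the genes that the study named from these mice, so its difference is not independent evidence.

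**Figure D2:**
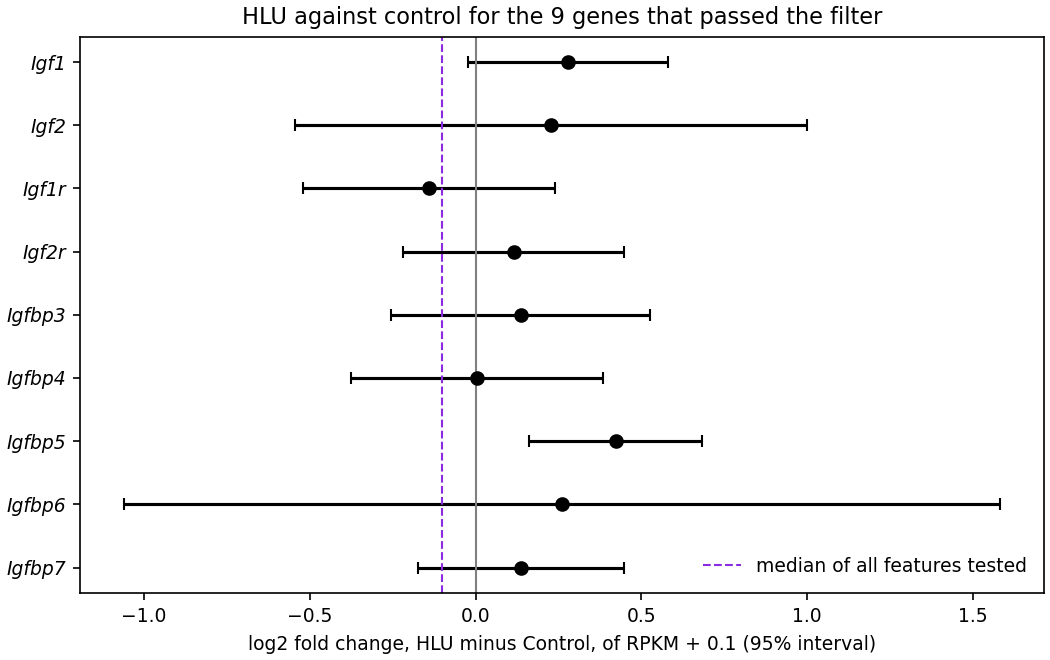
Log2 fold change of HLU against control (x axis, with 95% intervals from limma) for the 9 genes that passed the filter, with the grey line at 0 and the dashed line at the median of all tested features, -0.10. The interval of Igfbp5 lies above 0, those of the other 8 genes include 0, and the interval of Igfbp6 is the widest, from -1.06 to 1.58.

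Igfbp4, which in bone chiefly restrains IGFs, showed no shift of its mean. It had between 42.1 and 89.4 RPKM in control mice (median 76.6) and between 52.2 and 105.5 in HLU mice (median 69.9). The HLU mice divided into 4 at 79.0 RPKM or more (HLU 1, HLU 2, HLU 3 and HLU 5) and 4 at 60.9 or less (HLU 4, HLU 6, HLU 7 and HLU 8), and Control 6 was the lowest mouse. The log2 fold change was 0.01 ± 0.18 (SE, n = 8 each, exact permutation p = 0.977), with a 95% interval of -0.37 to 0.38.

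Igfbp7, a binding protein abundant in vessel walls, had between 37.7 and 67.3 RPKM in control mice (median 54.6). It had between 40.0 and 83.5 in HLU mice (median 57.9). HLU 1 alone lay above every control mouse, although 7 of 8 HLU mice were above the control median. The log2 fold change was 0.14 ± 0.15 (SE, n = 8 each, exact permutation p = 0.368, 95% interval -0.17 to 0.45). Polr2b and Gm34648 lie on the opposite strand at this locus.

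Igfbp3, the main carrier of IGFs in serum, had between 6.09 and 14.5 RPKM in control mice (median 11.4) and between 7.45 and 14.1 in HLU mice (median 11.9). No HLU mouse lay above every control mouse. The log2 fold change was 0.14 ± 0.18 (SE, n = 8 each, exact permutation p = 0.486, 95% interval -0.25 to 0.53).

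Igfbp6, the IGF2-preferring binding protein, had the widest spread of the 9, with a 25.0-fold range and a coefficient of variation of 82.1% over the 16 mice. It had between 0.639 and 13.5 RPKM in control mice (median 6.08) and between 2.25 and 15.9 in HLU mice (median 3.88). Control 3, Control 5, Control 7, Control 8, HLU 6 and HLU 7 had 9.86 RPKM or more, and the other 10 mice had 4.39 or less, so high and low mice were found in both groups. On the log2 scale the gap between these sets was 25.9% of the whole range. The log2 fold change was 0.26 ± 0.63 (SE, n = 8 each, exact permutation p = 0.706), with a 95% interval of -1.06 to 1.58, so that a 2.99-fold increase and a fall to 0.480 of control lay within it. Its mean was 6.38 ± 5.30 RPKM in control and 6.31 ± 5.48 in HLU mice (SD of 8 mice per group), with only HLU 6 and HLU 7 above the median of the control group. Reads on Igfbp6 numbered from 12 to 338 per mouse. With erythroid and granulocyte scores as covariates the log2 fold change was 1.01 (limma unadjusted p = 0.00733, adjusted p = 0.155), and with a tendon and ligament score, a list chosen after the data were seen, it was -0.05.

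Igfbp2 was close to the limit of detection, with 0 to 18 reads per mouse and 66 reads over the control and 58 over the HLU mice. Its level was between 0 and 0.307 RPKM in control mice (median 0.155) and between 0.0344 and 0.260 in HLU mice (median 0.125). In each group 2 mice had under 3 reads, and 3 reads correspond to between 0.0395 and 0.119 RPKM depending on the library, so a difference was not detectable at this depth (exact permutation p = 0.808). Limits set by reads cover counting error only.

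The binding proteins together summed to between 138 and 246 RPKM in control mice and between 185 and 295 in HLU mice, with the lowest sum in Control 6. Per unit of summed ligand this was 40.9 ± 8.39 in control and 41.0 ± 12.9 in HLU mice (SD of 8 mice per group), and with GENCODE M21 lengths between 18.5 and 35.9 (median 24.6) and between 14.9 and 35.9 (median 25.8). In the makeup of the sum, the largest difference was in Igfbp5. Its share was between 26.8% and 35.3% in control mice (median 31.5%) and between 30.3% and 38.5% in HLU mice (median 37.6%), with 7 of 8 HLU mice above every control mouse and HLU 1 within the control range. The mean difference was 5.34 percentage points (exact permutation p = 0.00777, adjusted p = 0.0855 over 11 such quantities). Igfbp4 had the next largest difference, from 34.8% ± 3.45 to 30.8% ± 4.68 (SD of 8 mice per group, exact permutation p = 0.0713), and the shares of Igfbp7, Igfbp3, Igfbp6 and Igfbp2 differed by less than 1 percentage point each. With GENCODE M21 lengths the difference was 5.51 points for Igfbp5, -2.99 for Igfbp4 and -2.02 for Igfbp7. Igfbp4 was the most abundant binding protein in 6 of 8 control mice and Igfbp5 in 7 of 8 HLU mice. That order rests on gene length: the length implied by the RPKM values is 9937 bases for Igfbp5 and 3577 for Igfbp4, while the combined exons in GENCODE M21 have 6006 and 4416. With the M21 lengths Igfbp4 lay below Igfbp7 in 16 of 16 mice, and Igfbp7 below Igfbp5 in 15 of 16.

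Across all 16 mice the deposited RPKM values ordered the genes as Igfbp5, Igfbp4, Igfbp7, Igfbp3, Igf2r, Igfbp6, Igf1, Igf1r, Igf2 and Igfbp2, by mean log2 level. Igfbp5 (77.1 ± 16.3 RPKM), Igfbp4 (74.5 ± 17.4) and Igfbp7 (57.0 ± 11.3) formed the top (SD of 16 mice), 5.12-fold and more above Igfbp3 (11.2 ± 2.63). In tests of neighbours within mice, 5 of 9 differed (two-sided exact sign-flip permutation test, adjusted over the 9 pairs). Igfbp5 and Igfbp4 were not separated, with Igfbp5 higher in 9 of 16 mice (adjusted exact permutation p = 0.486, n = 16). Nor were Igfbp6 and Igf1, Igf1 and Igf1r, or Igf1r and Igf2 (adjusted exact permutation p = 0.249 to 0.261). The implied lengths also differ from GENCODE M21 for Igf1 (19874 against 9904), Igf2 (13342 against 5723) and Igf1r (4897 against 16791). With M21 lengths the mean of Igf1r was 0.861 RPKM in place of 2.95, that of Igf1 was 6.73 in place of 3.36, and that of Igf2 was 5.80 in place of 2.49. Igf1r then lay below every other gene but Igfbp2. The fold change of a single gene between mice does not depend on these lengths, while sums, shares and ratios of genes do.

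**Figure D3:**
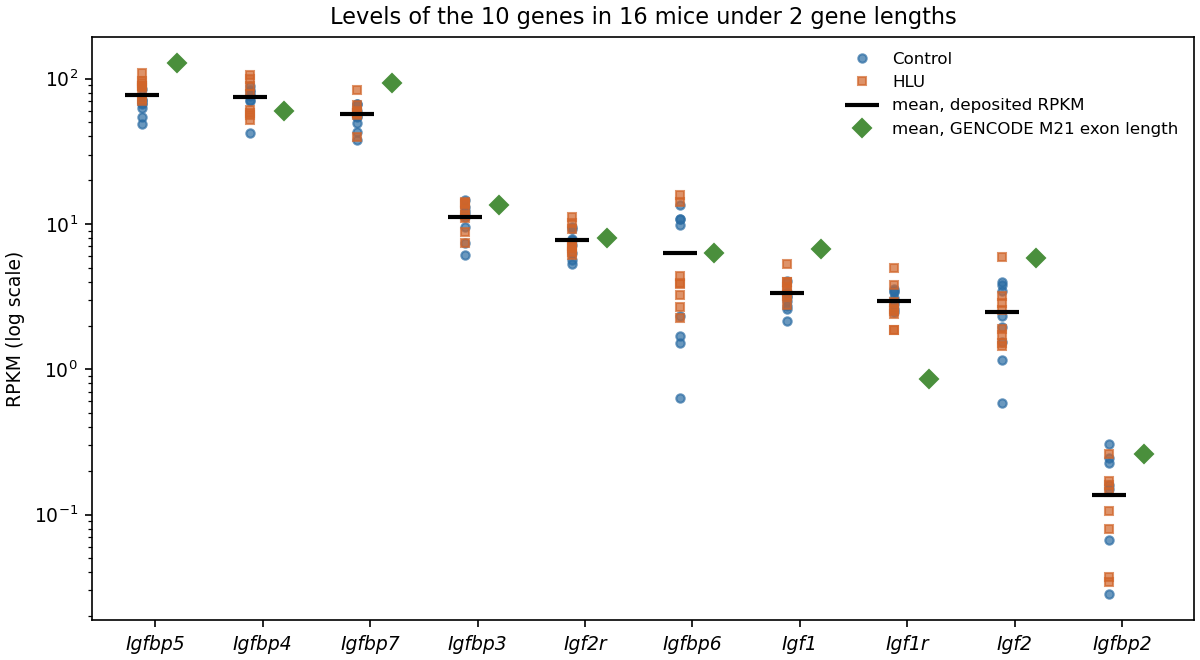
RPKM on a log scale (y axis) of each gene in each mouse (circles, control; squares, HLU), with the mean of the deposited values as bars and the mean recomputed with GENCODE M21 exon lengths as diamonds; Control 2, with 0 reads on Igfbp2, has no point there. Igfbp5, Igfbp4 and Igfbp7 lie on top under both lengths, and Igf1r moves from 2.95 to 0.861.

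The genes also varied together between mice within groups. Levels were centred on each group's mean on the log2 scale, and all 45 pairs were tested with 100000 permutations within groups. At an adjusted p under 0.05, 9 pairs were related by Pearson's r, 7 positively and 2 negatively, and 5 pairs by Spearman's rho. Without the 2 mice farthest from the median, 2 of the 45 pairs passed. The positive pairs were Igf2 with Igf2r, Igfbp3 and Igfbp6, Igfbp6 with Igf2r and Igfbp3, and Igfbp4 with Igfbp5 and Igfbp7, and the negative pairs were Igf1r with Igf2 and Igfbp3. Igf1 and Igfbp2 were in no such pair. By rho, Igfbp4 with Igfbp5 and with Igfbp7 did not pass (adjusted permutation p = 0.0714 and 0.152). Nor did Igfbp3 with Igfbp6 or Igf1r with Igfbp3 (adjusted permutation p = 0.166 and 0.0729).

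Igf2r and Igfbp6 were the closest pair (r = 0.89, permutation p = 1e-05, the smallest that the permutations can give, adjusted p = 0.00045, rho = 0.93, permutation p = 2e-05). Within the control group the relation was 0.94 and within the HLU group 0.89, and 0.86 without the 2 mice farthest from the median of Igf2r. Igf2 was related to Igfbp6 (r = 0.87, permutation p = 0.0001, adjusted p = 0.0015, rho = 0.80, permutation p = 0.00116) and was 0.78 without the 2 farthest mice. Igf2 was also related to Igfbp3 (r = 0.85, permutation p = 5e-05, adjusted p = 0.00112, rho = 0.83, permutation p = 0.00026) and was 0.79 without the 2 farthest. HLU 7 had the highest Igf2 and Igfbp6 of all mice, and Control 1 had the lowest of both, together with the lowest Igf2r and Igfbp3. Igf2 and Igf2r, a ligand and the receptor that clears it, had r = 0.75 (permutation p = 0.00109, adjusted p = 0.00981, rho = 0.72, permutation p = 0.00395), and 0.64 without the 2 farthest.

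Since Igfbp6 left a gap between high and low mice, its relations were also computed on either side of 5 RPKM, a limit set after its values were seen. Among the 10 mice below it, r was 0.78 with Igf2r (rho = 0.82), 0.82 with Igf2 (rho = 0.55) and 0.69 with Igfbp3 (rho = 0.65). Among the 6 mice above it, r was 0.83 with Igf2r (rho = 0.89), 0.39 with Igf2 (rho = 0.03) and -0.32 with Igfbp3 (rho = -0.37). The value for Igf2r was alike on both sides, and those for Igf2 and Igfbp3 were not, differences that were not tested.

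Igf1r ran against Igfbp3 and Igf2, with r = -0.69 for Igfbp3 (permutation p = 0.00076, adjusted p = 0.00855, rho = -0.63, permutation p = 0.0113) and r = -0.65 for Igf2 (permutation p = 0.00167, adjusted p = 0.0125, rho = -0.75, permutation p = 0.00066). Without the 2 farthest mice these were -0.57 and -0.62. The relation of Igf1r to Igfbp3 was -0.53 in control and -0.93 in HLU mice.

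Igfbp4 was related to Igfbp5 (r = 0.69, permutation p = 0.00416, adjusted p = 0.0267, rho = 0.65, permutation p = 0.00952) and to Igfbp7 (r = 0.64, permutation p = 0.00575, adjusted p = 0.0323, rho = 0.53, permutation p = 0.0315). Without the 2 farthest mice these were 0.45 and 0.53. Leaving out such mice narrows the range of a gene, which can itself lower r. A drop therefore cannot show how far a relation rests on them. Control 6 had the lowest Igfbp4, Igfbp5 and Igfbp7 of all control mice. Igfbp3 and Igfbp6 (r = 0.66, permutation p = 0.00917, adjusted p = 0.0458, rho = 0.55, permutation p = 0.0405) had r = 0.41 without the 2 farthest mice. When 1 mouse was left out, this pair missed the adjusted threshold of 0.05 in 10 of 16 runs. Igfbp4 with Igfbp5 missed it in 3 and Igfbp4 with Igfbp7 in 4.

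**Figure D4:**
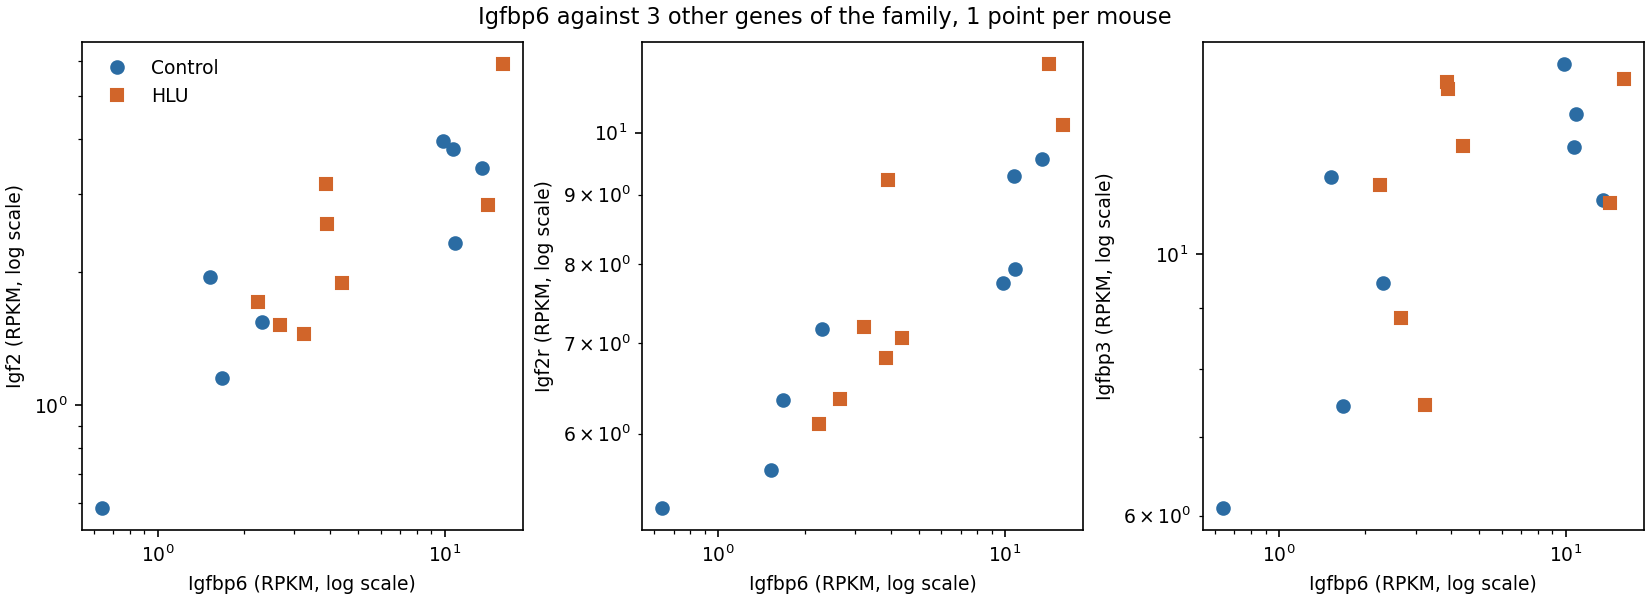
Igfbp6 (x axis) against Igf2, Igf2r and Igfbp3 (y axes) in RPKM on log scales, with 1 point per mouse (circles, control; squares, HLU). Both groups have mice with high and low Igfbp6, and r over all mice after centring within groups is 0.87, 0.89 and 0.66. Among the 6 mice over 5 RPKM of Igfbp6, r without centring is 0.39, 0.83 and -0.32.

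Marker scores of cell types moved with several of these genes. A score is the mean centred log2 level of a marker list, and of 130 relations of the 10 genes with 12 scores and with the percentage of reads not on listed features, 15 had an adjusted p under 0.05. A tendon and ligament list of 7 genes, which includes Comp, was chosen after the data were seen, so its values are a description with no test. Its score gave r = 0.90 with Igf2r, 0.85 with Igfbp6 and 0.81 with Igf2. The adipocyte score, with Adipoq and Plin1, gave r = 0.84 with Igfbp6, 0.82 with Igf2r and 0.81 with Igf2. Summed tendon and ligament markers (7 of 7 measured) ranged from 39.9 to 256 RPKM in control mice and from 79.2 to 388 in HLU mice, and summed adipocyte markers (5 of 6 kept) from 32.3 to 82.1 and from 48.2 to 88.1, with Lep below the filter. The share of reads outside the listed features gave r = 0.75 with Igfbp6, 0.74 with Igf2r and 0.72 with Igf2. Myh7 gave r = 0.72 with Igf2r, 0.61 with Igf2 and 0.58 with Igfbp6 (rho = 0.60, 0.45 and 0.48), as a description with no test. Without the 2 farthest mice these values of r were 0.67, 0.35 and 0.40. After the tendon and ligament score was regressed out, r was 0.57 for Igf2r with Igfbp6, 0.59 for Igf2 with Igfbp6, 0.76 for Igf2 with Igfbp3 and 0.08 for Igf2 with Igf2r. Then 4 of 45 pairs had an adjusted permutation p under 0.05. Since the list was chosen after the data were seen, these values and this count are also a description and not a test.

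Igf1r went with blood cell markers: r was 0.80 with the granulocyte score (permutation p = 0.00172, adjusted p = 0.0248, rho = 0.75, permutation p = 0.00394) and 0.77 with macrophage markers. With erythroid markers it was 0.69, which did not pass (adjusted permutation p = 0.0518). It was -0.68 with fibroblast and periosteum markers and -0.63 with osteocyte markers. The granulocyte and macrophage relations were 0.88 and 0.93 in HLU mice and 0.39 and 0.16 in control mice, where Igf1r varied little. Without the 2 farthest mice they were 0.61 and 0.62. HLU 2, with the highest Igf1r, also had the highest granulocyte score, and HLU 7, with the lowest, had the lowest. Igf2, Igfbp3 and Igfbp6 had negative relations with granulocyte markers, at -0.70, -0.61 and -0.63. Igfbp4 went with macrophage markers (r = 0.76) and Igfbp5 with endothelial markers (0.66), while Igfbp4 with marrow stroma markers (0.65) did not pass (adjusted permutation p = 0.0538). Igf1 had r = -0.61 with erythroid and 0.60 with fibroblast and periosteum markers, which did not pass the adjusted threshold (adjusted permutation p = 0.0860 each). The part of these cell types in the levels of the IGF genes was not tested.

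**Figure D5:**
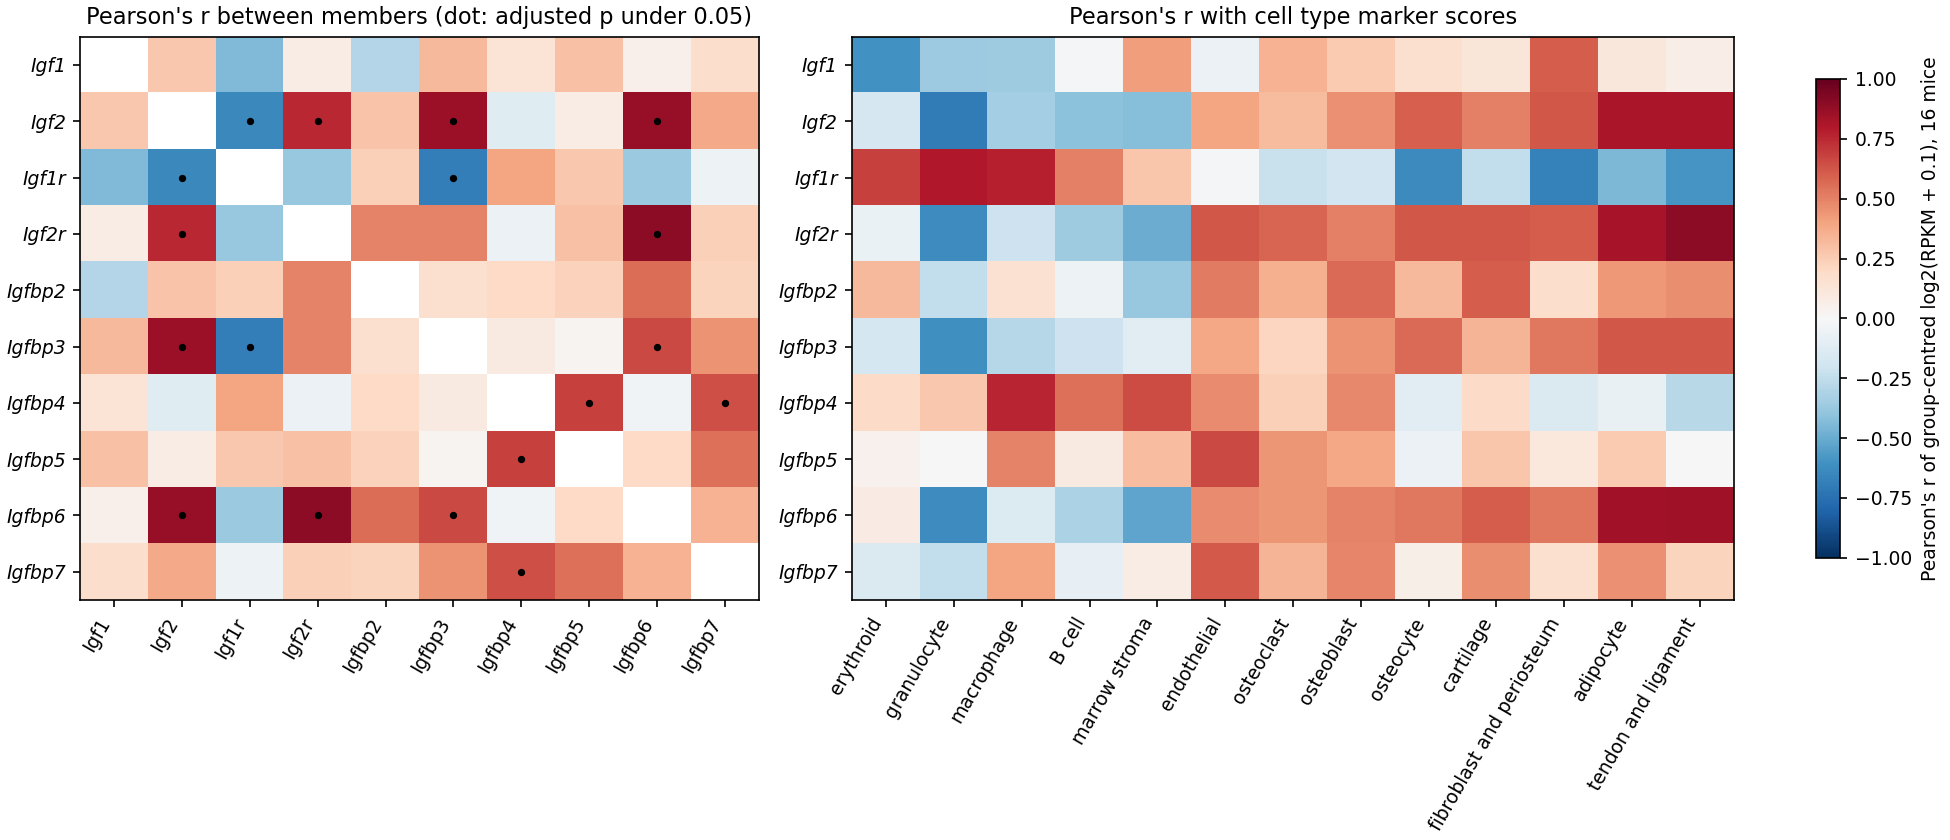
Pearson's r of group-centred log2 levels over 16 mice, from blue (-1) to red (1), between the IGF genes (left, the diagonal left blank, dots at an adjusted permutation p under 0.05) and between each gene and 13 marker scores (right). Igf2, Igf2r, Igfbp3 and Igfbp6 share red cells with one another and with adipocyte and tendon markers, Igf1r shows r = 0.80 with granulocyte markers, and Igfbp4 shows r = 0.76 with macrophage markers.

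The genes most like each IGF gene in their pattern over the 16 mice were found by group-centred r, as a description with no test. The search covered the 7442 features that averaged 5 RPKM or more and had a unique symbol that is not a date. For Igf2 they were Mfap4 (r = 0.96), a microfibril protein, Chad (0.92), a cartilage matrix protein, and Sned1 (0.92), and for Igf2r they were Itgb5 (0.93), an integrin subunit, Comp (0.93), a matrix protein of cartilage and tendon, and Blcap (0.92). Igfbp6 was most like Pcolce (0.95), which aids collagen processing, Gsn (0.94), an actin-severing protein, and Ece1 (0.94). Comp is also in the tendon and ligament list above. Igfbp3 was most like Fabp4 (0.88), a fatty acid carrier of adipocytes and vessels, then 4933436C20Rik (0.85) and Pdcl3 (0.83). Igf1r was most like Ankrd13a (0.94), Baz1b (0.94), a chromatin protein, and Polh (0.91), a DNA polymerase of damage bypass.

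Igfbp4 was most like Cxcl12 (r = 0.90), the chemokine of marrow stromal cells, which is also in the marrow stroma list, then Abhd12 (0.89) and Vamp2 (0.87). Igfbp5 was most like Praf2 (0.81), Stx6 (0.80) and Slc6a6 (0.79), a taurine transporter. Igfbp7 was most like Praf2 as well (0.86), then Mmrn2 (0.85), a vessel wall protein, and Zfp1 (0.84). Igf1 was most like Gm14308 (0.89), Sdc2 (0.85), a heparan sulfate proteoglycan of the cell surface, and Gm4724 (0.84). For Igfbp2, the values of Itpkb (0.86), Exosc5 (0.83) and Gm24689 (0.82) rest on 18 reads per mouse or fewer.

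The wider pathway was read from 7 lists with 60 symbols, of which 57 matched a feature and 50 passed the filter. None of the 50 was called higher and 1 was called lower, where 1.11% and 4.76% of all features were. The median log2 fold change over the 50 was -0.07, against -0.10 for all features. The gene called was Foxo3, a transcription factor that AKT holds out of the nucleus, with between 15.5 and 24.1 RPKM in control mice and between 10.9 and 20.2 in HLU mice. The groups overlapped, and the log2 fold change was -0.40 ± 0.15 (SE, n = 8 each, limma unadjusted p = 0.0139, adjusted p = 0.744, exact permutation p = 0.0182), or -0.30 relative to the median of all features. Among the other 20 PI3K, AKT, mTOR and FOXO genes measured none was called. Pik3r1, the regulatory subunit of PI3K, had 30.2 ± 4.71 RPKM in control and 30.7 ± 4.97 in HLU mice (SD of 8 mice per group). Eif4ebp1, the translation repressor under mTOR, had between 7.67 and 31.1 RPKM in control and between 9.60 and 22.7 in HLU mice.

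Upstream of Igf1, 0 of 5 genes of the growth hormone axis were called, where 5.87% of all tested features were called in either direction. In lists this short, 0 calls is near that share and does not show that a pathway was unchanged. Ghr, the growth hormone receptor, had between 4.54 and 8.84 RPKM in control and between 5.03 and 14.3 in HLU mice, with a log2 fold change of 0.42 ± 0.20 (SE, n = 8 each, exact permutation p = 0.0696). Jak2, the kinase bound to that receptor, had a log2 fold change of -0.12 ± 0.18. Of the proteases and carriers that free or hold IGFs 0 of 5 were called, with Htra1, which cleaves IGFBP5, at 13.4 ± 5.83 and 16.8 ± 5.24 RPKM and Adam12 at 4.78 ± 1.66 and 4.74 ± 1.61 (SD of 8 mice per group). Igfals, Pappa2 and Adam28 were below the filter.

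At the receptor, 0 of 8 adaptors measured were called, near the 5.87% of all tested features, as holds for the short lists below. The most abundant were Shc1 (log2 fold change -0.20 ± 0.12) and Grb2 (-0.09 ± 0.12). In the MAPK branch 0 of 6 were called, with Mapk3 at -0.01 ± 0.23. H19, the noncoding RNA that neighbours Igf2 and is imprinted in the opposite sense, had between 12.6 and 90.6 RPKM in control and between 17.3 and 97.1 in HLU mice, and Igf2bp1, Igf2bp2 and Igf2bp3 were below the filter. Of the mannose 6-phosphate pathway 0 of 4 genes measured were called. M6pr, the cation-dependent mannose 6-phosphate receptor, was at -0.23 ± 0.14 and Gnptg, a subunit of the enzyme that builds the tag, at -0.10 ± 0.26 (SE, n = 8 each).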

How the data were processed

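RNA of femoral cortical bone was measured in 16 mice, 8 control and 8 HLU, with each mouse's group and number taken from its title. The authors prepared TruSeq libraries, sequenced them on a HiSeq and aligned the reads with TopHat2, with mm9 and DESeq2 also named in the submitters' processing notes. The annotation, gene lengths and strand setting are not given in the sources used here. The authors deposited RPKM values, in which a gene's reads are scaled by gene length and by library total, so depth and length are removed but not differences in RNA composition. The DESeq2 test of the study was not applied and was replaced by limma on the RPKM values. Voom on reads recovered from them was an alternative.

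Features averaging 0.5 RPKM or more were kept (16973 of 36829), and log2(RPKM + 0.1) was fitted with limma 3.58.1 in R 4.3.3, with a variance trend and Benjamini-Hochberg adjustment over all features kept. A fold change on this scale understates the change of low genes. Exact permutation tests, two-sided, ran over the 12870 ways to divide the mice for single genes and shares (smallest p 0.000155), levels of neighbouring genes were tested by exact sign flips within mice, and pairs of genes by 100000 permutations within groups. Python 3.11.15 was used, together with scipy 1.17.1, numpy 2.4.6, matplotlib 3.10.9 and pandas 2.3.3. Read numbers could be worked back from RPKM for 100% of features kept (16973), to within 0.000514 reads of a whole number, and gave the depths and implied gene lengths. The limma fit was tested on simulated data. The closest replicates, Control 3 and Control 5, differed by 13.7 times the chi-square expected of sampling noise, so every library counted as 1 sample. The study assigned mice to the groups at random, but nothing states that they were housed or handled independently. The p-values treat each mouse as an independent sample, which could not be checked.

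The 10 IGF genes, the pathway lists and the marker lists were chosen with earlier results of these data known. The text names all 10 genes, the 3 features most like each, and from each pathway list the genes with an unadjusted limma p under 0.05 and the 2 most abundant, of which 1 gene is not reported here. Alternatives were other pseudocounts, filters, scalings, a replicate block, voom on recovered reads, marker scores as covariates and leaving out each mouse. The tendon and ligament list, the 2 smallest libraries left out, and lengths from GENCODE M21 were added after the data were seen. GENCODE M21 and RefSeq, both on GRCm38, served only for positions, neighbours, exon lengths and promoters. All 10 symbols matched both, with 14 RefSeq promoters.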

Additional observations from a re-analysis of the deposited data

Results flagged for a closer look

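A test for 1 mouse far from the others of its group (Dixon's ratio, 95% level) was applied to 50 sets of 8 mice and marked 6, where chance marks about 1 in 20. The sets are genes, shares and sums of the same mice, and the summed binding proteins entered both as RPKM and as log2. The marks are therefore not independent, and their number cannot be read as an excess over chance. Igf2 in HLU 7 was at 5.91 RPKM, and the next HLU mouse at 3.17. Igfbp4 in Control 6 was at 42.1 RPKM, with the next control mouse at 69.9, and in the same mouse the summed binding proteins were at 138 RPKM (7.11 on the log2 scale), with the next at 198. The Igfbp3 share of the binding proteins was 2.90% in Control 1, with the next control mouse at 4.60%. The Igfbp5 share was 30.3% in HLU 1, with the next HLU mouse at 36.5%, and this mouse had the highest Igfbp4 and Igfbp7. Without Control 6 the log2 fold change of Igfbp5 was 0.36 and that of Igfbp4 was -0.11. The cause of these values was not tested.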

How the results depend on the processing

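Igfbp5 kept its direction and its unadjusted call under all 28 alternatives to the comparison (log2 fold change 0.36 to 0.55, adjusted p 0.155 to 0.975). Among the 9 IGF genes tested, 2 were called in place of 1 with median-of-ratios scaling, quantile normalization and the replicate block, Igf1 being the second (0.36, 0.38 and 0.28), and with erythroid and granulocyte scores as covariates, Igfbp6 being the second, and 1 to 2 when 1 mouse was left out, 2 without Control 4 or HLU 3. Over all features the unadjusted count of 996 became 2882 with these covariates and 591 to 1750 when 1 mouse was left out (653 without Control 6, 660 without Control 7, 635 without HLU 1, 591 without HLU 7 and 1750 without HLU 2). The adjusted count of 0 became 1 with no filter on low values, no variance trend or the tendon and ligament score, 20 with the blood scores, and 0 to 1 when 1 mouse was left out.

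Some directions turned: Igf1r was 0.0215 with the blood scores, Igfbp4 -0.0434 without the 2 smallest libraries and Igfbp6 -0.0549 with the tendon and ligament score. When 1 mouse was left out, log2 fold changes ran from -0.0028 to 0.36 for Igf2, -0.106 to 0.0730 for Igfbp4 and -0.0929 to 0.51 for Igfbp6. Differences in percentage points ran from -0.42 to 0.17 for the Igfbp3 share, -0.77 to 0.20 for the Igfbp6 share and -1.14 to 5.10 for the Igf1 share. Binding proteins per ligand (log2 difference -0.04) ran from -0.12 to 0.0653 and was 0.0026 with GENCODE M21 lengths. Summed binding proteins gave 0.28 with median-of-ratios scaling in place of 0.19. Of 9 neighbours in level, 3 differed in control mice alone and 3 in HLU mice alone, in place of 5. Of 45 pairs, 9 had an adjusted permutation p under 0.05, 5 with Spearman's rho, 2 without the 2 farthest mice and 6 to 9 when 1 mouse was left out. With the tendon and ligament score regressed out 4 did, a description only, since its list was chosen after the data were seen.

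The labels number mice 1 to 8 in each group, and nothing says that equal numbers share a litter or day. Same-numbered mice had correlations from -0.17 to 0.51, over 0.1 for 3 of 8 numbers, and 1 of 8 control and 2 of 8 HLU mice correlated best with their own number, so the numbers were not used as pairs. With the replicate block 199 features were higher and 840 lower at the unadjusted threshold, and the adjusted count stayed at 0 (unadjusted p under 0.05, 1060).

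Depth limited Igfbp2, with at most 18 reads per mouse, and Igfbp6, with 12 reads in the lowest mouse. RPKM holds no spike-in, so a change shared by all genes could not be seen. Gene lengths differ from GENCODE M21, which affects levels, sums and shares across genes but not a single gene's fold change.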
